A study of Zea mays with 6 samples.

Results

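The SBP-box genes unbranched2 (ub2), unbranched3 (ub3) and tasselsheath4 (tsh4) of maize (Zea mays) were measured by mRNA sequencing in developing ears. They were chosen by ID, as the gene models Zm00001d031451, Zm00001d052890 and Zm00001d020941, and are 3 of the 46272 gene IDs in the count files. Neither the files nor the gene table at hand pairs these IDs with the gene names, so the names rest on this assignment and were not checked. Ears 2 to 3 mm long came from field-grown ra3;tpp4 double mutants, called the mutant here, and from wild-type (WT) plants of the inbred line B73, with 3 libraries per genotype that the series design calls biological replicates. The product of ra3 (ramosa3), a trehalose-6-phosphate phosphatase, keeps inflorescences from branching in excess, and tpp4 codes for a related phosphatase. The labels name neither the alleles nor the inbred background of the mutant, and do not say how many ears went into a library. Gene counts per library ran from 19291332 to 25254164 in ra3;tpp4 and from 25815984 to 26752609 in WT.

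SBP-box proteins are plant transcription factors that bind DNA through a zinc-binding domain. ub2 and ub3 are close paralogs that act redundantly with tsh4: they regulate the rate at which lateral primordia form in the maize inflorescence, and their loss lowers the number of tassel branches and raises the number of kernel rows on the ear. The transcripts of this class are targets of the microRNA miR156, whose excess in the Corngrass1 mutant lowers them. The comparison of ra3;tpp4 with WT asks whether these branching genes change in ears that carry mutations in both trehalose phosphatase genes.

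None of these genes passed the test for a difference between ra3;tpp4 and WT ears, and for each of them the libraries of the genotypes overlapped. ub2, ub3 and tsh4 had estimated levels of 1.07, 1.19 and 1.06 times WT in the mutant after scaling of the libraries, each with an interval that includes no change. All 3 passed the filter on low counts, and 0 of the 3 were called (adjusted p under 0.05 in edgeR's quasi-likelihood test, with Benjamini-Hochberg adjustment over all tested IDs), where 1.47% of the 21127 tested IDs were. The unadjusted edgeR p was under 0.05 for 0 of the 3, against 2825 of the 21127 tested IDs. DESeq2 and limma-voom called 0 of the 3 as well, where they called 3.54% and 1.60% of the IDs they tested. The groups did not overlap for 0 of the 3, against 19.9% of all tested IDs.

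ub2, named for mutants with few tassel branches, had 111, 91.4 and 126 CPM (counts per 1000000 gene counts of the library) in mutant replicates 1, 2 and 3, and 76.6, 114 and 120 CPM in WT replicates 1, 2 and 3. WT replicate 1 was the lowest of the 6 libraries and mutant replicate 3 the highest, and mutant replicate 2 lay below WT replicates 2 and 3. ub2 averaged 109 ± 17.2 CPM in the mutant and 104 ± 23.5 CPM in WT (SD, n = 3 each). The log2 change of ub2 was 0.10, with SE 0.208 and an edgeR adjusted p of 0.887, and a 95% interval of -0.41 to 0.61 that spans 0.755-fold to 1.52-fold. The sign of this value turned on single libraries: it was -0.08 when WT replicate 1 was left out and -0.02 when mutant replicate 3 was left out.

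ub3, the paralog of ub2 and a locus at which natural variation affects kernel row number, had 139, 120 and 151 CPM in mutant replicates 1, 2 and 3, against 95.8, 121 and 132 CPM in WT replicates 1, 2 and 3. Both mutant replicate 1 and replicate 3 lay above every WT library, while mutant replicate 2 lay within the WT range. ub3 averaged 137 ± 15.9 CPM in the mutant and 116 ± 18.7 CPM in WT (SD, n = 3 each). Its log2 change of 0.26 (SE 0.139) had an unadjusted p of 0.104 and an edgeR adjusted p of 0.492. The 95% interval, -0.07 to 0.58, runs from 0.955-fold to 1.50-fold. The value was positive whichever library was left out, but it was 0.13 without WT replicate 1, against 0.26 with all 6 libraries.

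tsh4, which represses leaf-like bracts in the tassel and helps to set meristem boundaries, had 446, 374 and 386 CPM in mutant replicates 1, 2 and 3, against 389, 410 and 359 CPM in WT replicates 1, 2 and 3. Mutant replicate 1 was the highest library and WT replicate 3 the lowest, and the other libraries of both genotypes lay between them. tsh4 averaged 402 ± 38.4 CPM in the mutant and 386 ± 25.5 CPM in WT (SD, n = 3 each). The log2 change of tsh4 was 0.08, with SE 0.0857 and an edgeR adjusted p of 0.742, and a 95% interval of -0.11 to 0.27 that spans 0.928-fold to 1.21-fold, the narrowest of the 3. Without mutant replicate 1 the value was -0.0023. As single values the CPM of ub2, ub3 and tsh4 gave two-sided exact permutation p-values of 0.7, 0.3 and 0.7, where 3 libraries against 3 cannot go below 0.1.

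**Figure D1:**
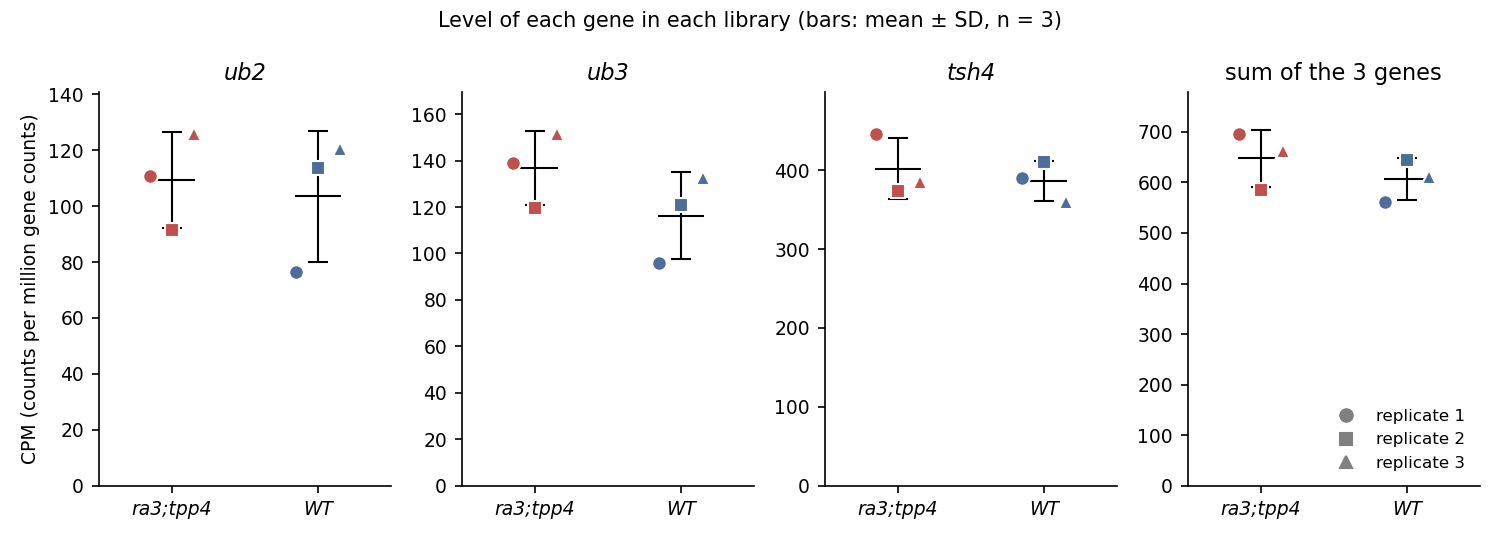
CPM of ub2, ub3, tsh4 and their sum (vertical axes, starting at 0) in the mutant libraries and the WT libraries. Symbols mark replicates, horizontal bars the means and error bars the SD (n = 3). In every panel the genotypes overlap, and WT replicate 1 is the lowest library for ub2 (76.6 CPM) and ub3 (95.8 CPM) but not for tsh4 (389 CPM).

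The summed level of the 3 genes, a measure of how much transcript of this redundant set was sequenced, was 696, 585 and 663 CPM in mutant replicates 1, 2 and 3, against 562, 644 and 612 CPM in WT replicates 1, 2 and 3. The genotypes overlapped, since mutant replicate 2 lay below WT replicates 2 and 3. The sum averaged 648 ± 56.5 CPM in the mutant and 606 ± 41.5 CPM in WT (SD, n = 3 each), a ratio of 1.07, and a score over chosen genes was given no p. These are values of whole ears, in which fewer cells of a type and less RNA per cell cannot be told apart.

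The make-up of the sum was also compared, since shares within a library do not depend on how libraries are scaled. tsh4 reads made up 64.1%, 63.9% and 58.2% of the sum in mutant replicates 1, 2 and 3, and 69.3%, 63.6% and 58.7% in WT replicates 1, 2 and 3. The tsh4 share averaged 62.1% ± 3.36 in the mutant and 63.9% ± 5.31 in WT (SD, n = 3 each), and varied more among WT libraries than between the genotype means. ub3 supplied 21.1% ± 1.53 in the mutant and 19.1% ± 2.32 in WT (SD, n = 3 each), with overlapping libraries. The ub2 share was 16.8% ± 1.86 in the mutant and 17.0% ± 3.07 in WT (SD, n = 3 each). Counting error was small beside these spreads, since the 95% Wilson interval of any single share reached at most 0.855 percentage points to either side. The shares are of reads and do not rank the genes by transcript number, because transcript lengths for these gene models were not used here.

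The paralogs held a steadier read ratio to each other than either held to tsh4. ub2 had 0.797, 0.763 and 0.831 reads per ub3 read in mutant replicates 1, 2 and 3, against 0.800, 0.942 and 0.909 in WT replicates 1, 2 and 3. WT replicate 1 lay among the mutant libraries and the other WT libraries lay above them. The mean ratio was 0.797 ± 0.0338 in the mutant and 0.884 ± 0.0743 in WT (SD, n = 3 each). The highest ratio was 1.09 times the lowest among the mutant libraries and 1.18 times among the WT libraries. For tsh4 reads per ub2 read the same quotient was 1.33 in the mutant and 1.70 in WT, and for tsh4 reads per ub3 read it was 1.26 in the mutant and 1.50 in WT. Whether the genotype difference of one gene differs from that of another was not tested.

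**Figure D2:**
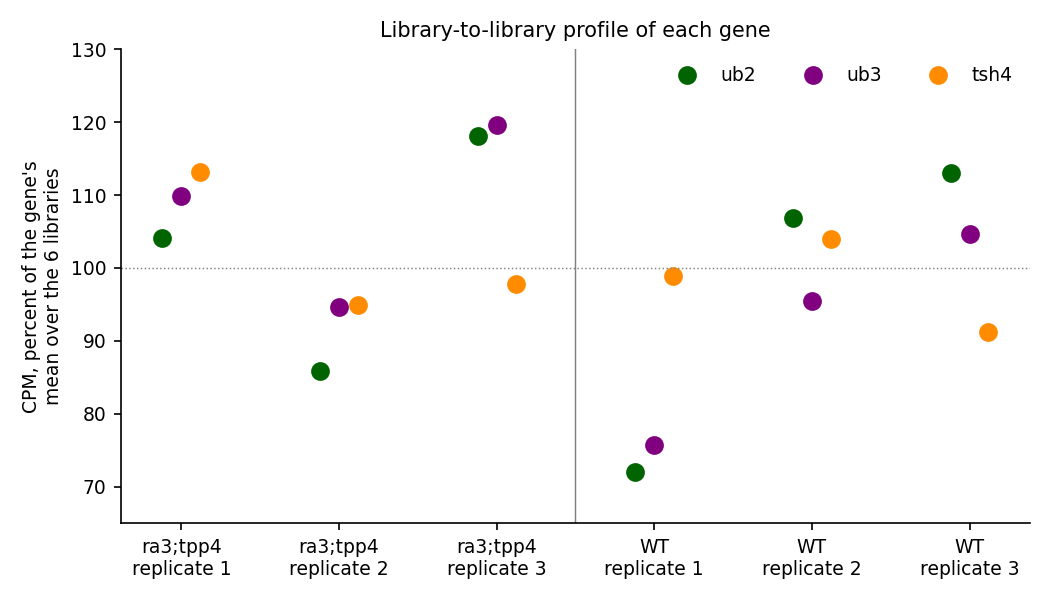
Level of ub2, ub3 and tsh4 in each library (horizontal axis), as a percent of the gene's mean CPM over the 6 libraries; the dotted line marks 100 percent. ub2 and ub3 are high together in mutant replicate 3 (118% and 120%), where tsh4 stands at 97.9%, and low together in WT replicate 1 (72.0% and 75.7%), where tsh4 stands at 98.9%.

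The spread among libraries of 1 genotype was wide for ub2 and ub3 and near the trend of all IDs for tsh4. The highest ub2 CPM was 1.38 times the lowest across mutant libraries and 1.57 times across WT libraries. For ub3 these quotients were 1.26 in the mutant and 1.38 in WT, and for tsh4 they were 1.19 in the mutant and 1.14 in WT. With 1982 to 10963 reads per gene and library, counting error alone gives a coefficient of variation of 0.955% to 2.25%. The biological coefficient of variation, edgeR's moderated estimate of replicate spread beyond counting error, was 17.9% for ub2 and 12.4% for ub3, where the trend over all tested IDs stood at 8.55% and 8.48% for their abundance. It exceeded that of 98.4% of the 4409 other tested IDs within 1 log2 unit of the mean level of ub2, and of 94.3% of the 3768 such IDs for ub3. tsh4 had 8.64%, close to its trend of 8.60% and above 72.8% of the 821 other tested IDs of its level.

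This spread bears on how large a change edgeR could have called. The largest unadjusted p among the edgeR calls was 0.000725. With the standard errors given above, ub2 would have needed to be 2.46-fold higher or at 0.407 of its WT level, ub3 1.69-fold higher or at 0.593, and tsh4 1.32-fold higher or at 0.757. These limits hold for the edgeR fit of 6 libraries and not for other tools or subsets. Among IDs of like abundance, the size of the log2 change was smaller than that of ub2 for 60.7%, smaller than that of ub3 for 92.8% and smaller than that of tsh4 for 58.2% (of 821 IDs). The median log2 change was 0.10 over the 3 genes and -0.0022 over all tested IDs.

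**Figure D3:**
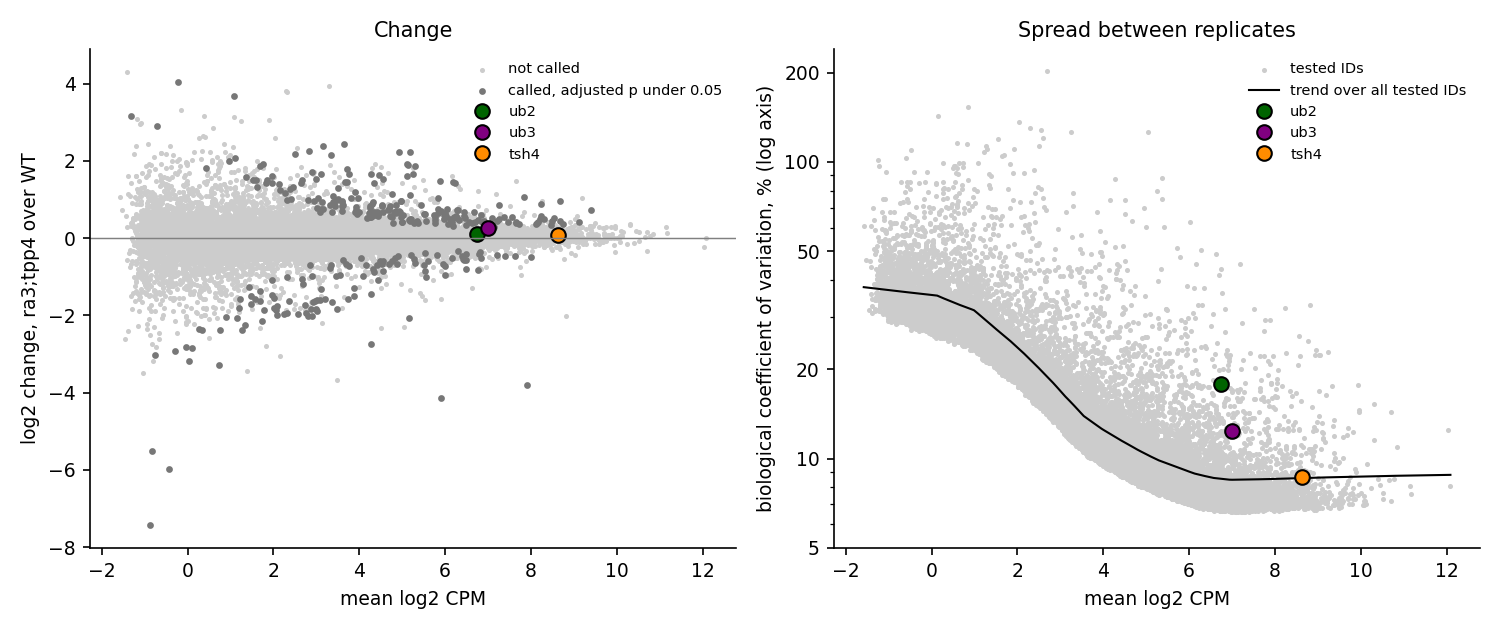
Left, log2 change of ra3;tpp4 over WT against mean log2 CPM for all tested IDs, with called IDs in dark grey; right, biological coefficient of variation (percent, log axis) against mean log2 CPM, with its trend as a line. On the left ub2, ub3 and tsh4 stand at 0.10, 0.26 and 0.08. On the right ub2 (17.9%) and ub3 (12.4%) lie above the trend, while tsh4 (8.64%) lies on it.

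Mutant replicate 2 and WT replicate 1, the lowest libraries of their genotypes for both ub2 and ub3, were also the libraries least like the others of their genotype over all tested IDs. Their counts differed from those of a replicate by a chi-square of 12.1 to 16.3 per degree of freedom in the 4 within-genotype pairs that held either of them, against 5.31 for mutant replicates 1 and 3 and 7.43 for WT replicates 2 and 3. Across genotypes, mutant replicate 3 stood at 10.7 with WT replicate 2 and at 11.6 with WT replicate 3. Mutant replicate 1 stood at 11.3 with WT replicate 2. These values lay below those of the 4 pairs. However, this chi-square was computed on raw counts and rises with depth. Mutant replicate 3 had the fewest gene counts of all libraries (19291332), so its pairs are not ranked on equal depth. CPM have the same total in every library, so they cannot show whether a library was low in general. In CPM, mutant replicate 2 was the lowest of its genotype for 31.3% of tested IDs and WT replicate 1 for 32.2%. They were the highest of their genotype for 44.5% and 41.5%, more often than any other library of that genotype. Without both libraries, ub2 had a log2 change of 0.04 (SE 0.0766, edgeR adjusted p = 0.877), ub3 of 0.22 (SE 0.0739, edgeR adjusted p = 0.123) and tsh4 of 0.14 (SE 0.0842, edgeR adjusted p = 0.512). Leaving out the lowest library of each genotype narrows the spread of ub2 and ub3 by construction, so these standard errors are no separate evidence of precision. Alignments that were not unique made up 11.0% to 15.3% of all records in the mutant and 19.3% to 22.2% in WT. Reads that fit more than 1 gene equally well go to that class, so counts of the paralogs ub2 and ub3 may miss some reads. The part of this class in their values was not tested.

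**Figure D4:**
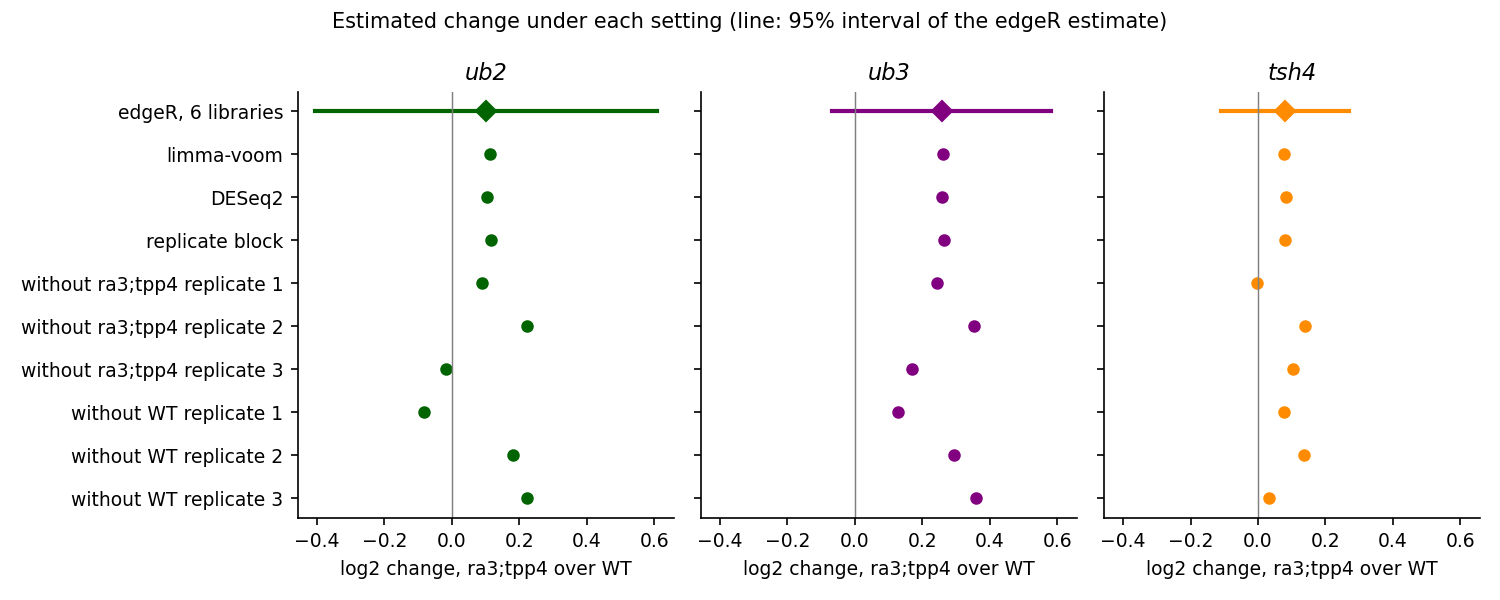
Log2 change of ra3;tpp4 over WT for ub2, ub3 and tsh4 (horizontal axes) in the edgeR fit of 6 libraries (diamond, with its 95% interval) and under other tools, with the replicate number as a block, and without each library (circles). ub3 keeps a positive value in every setting drawn, while ub2 crosses 0 when WT replicate 1 or mutant replicate 3 is left out and tsh4 reaches -0.0023 without mutant replicate 1.

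The IDs whose library-to-library profile was most like that of each gene were sought among tested IDs within 1 log2 unit of its mean level. Likeness was the root-mean-square difference of log2 CPM over the 6 libraries after each ID's mean had been subtracted. For ub2 the nearest of 4409 IDs was Zm00001d032739, at 0.0574, and the median ID stood at 0.264. It had 114, 90.3 and 129 CPM in mutant replicates 1, 2 and 3, against 83.0, 110 and 129 CPM in WT replicates 1, 2 and 3, so its lowest libraries were the same as those of ub2. For ub3 the nearest of 3768 IDs was Zm00001d036250, at 0.0359, with 80.5 to 101 CPM in the mutant and 67.2 to 91.4 CPM in WT. For tsh4 the nearest of 821 IDs was Zm00001d029055, at 0.0438, with 202 to 220 CPM in the mutant and 179 to 212 CPM in WT. The files do not pair these IDs with gene names.

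ub2 and ub3 were close to each other on the same scale, at 0.108. Only 15 of the 4409 IDs of like level (0.340%) were nearer to ub2 than ub3 was, and 93 of 3768 (2.47%) were nearer to ub3 than ub2 was. tsh4 stood at 0.263 from ub2 and 0.219 from ub3. Among IDs of like level, 48.8% were nearer to ub2 and 45.7% nearer to ub3 than tsh4 was, so tsh4 was about as far from them as the median ID. Of the 821 IDs at the level of tsh4, 95.4% were nearer to it than ub2 was and 91.0% nearer than ub3 was. The distance is not scaled to the spread of an ID, so the wide spread of ub2 and ub3 enters it. These percentages therefore do not show whether the profile of tsh4 differs in shape from those of the paralogs. Most IDs of like level had a smaller biological coefficient of variation than ub2 or ub3. For that reason the 0.340% and 2.47% do not show a profile particular to the paralogs. With 6 libraries these distances are a description, and the IDs share the same libraries and depth.

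Precursors of the microRNAs that act on SBP-box transcripts were nearly unread. The 11 MIR156 precursors, which include zma-MIR156b of the Corngrass1 locus, held 6 counts in the mutant (exact 95% Poisson interval 2.20 to 13.1) and 1 count in WT (0.0253 to 5.57). In the mutant, replicate 1 gave the 4 counts of zma-MIR156k and replicate 2 the 2 counts of zma-MIR156d. The WT count was 1 read of zma-MIR156j in replicate 1, and the other 8 precursors were at 0 in all libraries. The precursor of miR529, a microRNA that also pairs with SBP-box transcripts, had 0 counts in the mutant and 0 in WT, which allows up to 0.0437 CPM in the mutant and 0.0382 CPM in WT (3 counts over the 3 libraries of a genotype). The 4 MIR172 precursors, of a family that SBP-box factors activate in Arabidopsis, held 1 count in the mutant (0.0253 to 5.57) and 6 counts in WT (2.20 to 13.1), all of zma-MIR172e, the tasselseed4 locus. None of these 16 precursors passed the filter on low counts. Reads on precursors do not give mature microRNA levels, so no statement about miR156 itself follows from them.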

How the data were processed

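Libraries of mRNA were made from total RNA of young ears, per the labels' protocols. The authors deposited raw counts per gene ID, 1 file per library; the submitters' processing notes name Trimmomatic 0.36, HISAT2 2.1.0, HTSeq and, as the genome, B73 RefGen_v4. Annotation release, strand setting and parameters: not given in the sources used here. The 5 summary lines that HTSeq adds for unassigned records (22.3% to 34.5% of all records) stayed out of library sizes and tests.

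CPM were computed over gene rows. The test was edgeR 4.0.16 (robust quasi-likelihood, TMM scaling, filterByExpr) in R 4.3.3 on all 6 libraries, adjusted over 21127 IDs; standard errors were taken as the log2 change over the root of F. It was tested on simulated data whose replicate spread followed the trend, which is below the spread of ub2 and ub3. Alternatives used DESeq2 1.42.0, limma-voom (limma 3.58.1), other scalings and filters, a replicate block and left-out libraries. No 2 libraries agreed within sampling noise.

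The genes and lists were chosen with earlier results of these data known. The naming rule took the 3 genes, the MIR156, MIR529 and MIR172 precursors, and the ID with the profile nearest to each gene. The RefSeq gene table at hand (Zm-B73-REFERENCE-NAM-5.0) had entries for 153 of the 46272 IDs, all microRNA precursors. Other SBP-box genes, ra3, tpp4 and tissue markers were therefore not matched to IDs, the mutated genes were not checked, and sequences and positions are not used here. Log2 CPM used a prior count of 2. Intervals of counts cover counting error only.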

Additional observations from a re-analysis of the deposited data

How the results depend on the processing

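ub2, ub3 and tsh4 were called in 0 of 17 alternatives each, with adjusted p of 0.723 to 0.986, 0.123 to 0.767 and 0.471 to 0.998. Over the 10 alternatives that keep all 6 libraries, the log2 changes stayed at 0.08 to 0.12 for ub2, 0.23 to 0.26 for ub3 and 0.06 to 0.08 for tsh4. Without each library in turn they ran from -0.082 to 0.22, 0.13 to 0.36 and -0.0023 to 0.14. The sign turned for ub2 when WT replicate 1 (-0.082) or ra3;tpp4 replicate 3 (-0.018) was left out, and for tsh4 when ra3;tpp4 replicate 1 was (-0.0023). The 310 calls over all IDs became 817 in DESeq2, 511 with no filter on low counts, 58 to 471 without each library in turn and 702 with both WT replicate 1 and ra3;tpp4 replicate 2 left out, a setting chosen after seeing the data; the cause was not tested. The differences in the sum, the shares and the precursor counts moved by less than the replicate SD in every alternative run. That SD was larger than each difference itself, so this limit does not show that a sign held. The sum stayed higher in the mutant, by 18.1 to 73.2 CPM, and the ub3 share by 0.916 to 3.21 percentage points. The ub2 share difference ran from -1.81 to 1.20 percentage points and that of tsh4 from -4.41 to 0.896. The precursor difference, pooled over MIR156, MIR529 and MIR172, was -0.0239 CPM without ra3;tpp4 replicate 1, against 0.0097 CPM with all 6 libraries. The pooled value hides families that ran opposite ways: MIR156 had 6 counts in the mutant and 1 in WT, MIR172 had 1 and 6. Replicate numbers gave no pairing (deviations of libraries with the same number correlated at -0.181, -0.123 and 0.154). With the replicate block, log2 changes were 0.12, 0.26 and 0.08 and 290 IDs were called. For ub2, ub3 and tsh4 the replicate spread exceeds the counting error, and the precursor counts are too few for a test.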
